A study of Arabidopsis thaliana with 9 samples.

Results

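The genes described are 10 Arabidopsis thaliana genes of starch synthesis and of glucose phosphate import into plastids, out of 37869 loci counted in each library. They were taken by locus identifier: GPT1 (AT5G54800), GPT2 (AT1G61800), GBSS1 (AT1G32900), SS1 (AT5G24300), SS2 (AT3G01180), SS3 (AT1G11720), SS4 (AT4G18240), ADG1 (AT5G48300), APL1 (AT5G19220) and APL3 (AT4G39210). The genes were chosen by their roles and selected on exon levels in these same libraries, so the levels and fold changes of these 10 genes are given as a description, with no p-value. Counts of them past the threshold of the fit over all genes appear below beside the share of all genes, and nothing is read from them. Polyadenylated RNA was sequenced from whole seedlings aged 12 days, grown on plates with 16 h of light and 8 h of dark. The genotypes were pp4r3a-2 and pp4r3a-1, each carrying its own mutant allele of PP4R3A (AT3G06670) in the Col-0 background, and wild-type Col-0, with 3 biological replicates each. PP4R3A encodes a regulatory subunit of protein phosphatase 4. The sources used here do not give the kind of lesion in each allele or the hour of harvest.

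Leaf cells make starch inside the chloroplast from sugar phosphates of the Calvin cycle. Plastids without enough photosynthesis of their own import glucose 6-phosphate through the translocators GPT1 and GPT2. ADP-glucose pyrophosphorylase, built from small subunits (ADG1) and large subunits (APL1 to APL4), makes the sugar donor. The soluble synthases SS1 to SS4 extend and initiate the branched glucan amylopectin, and the granule-bound synthase GBSS1 makes the linear glucan amylose.

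Exon counts per library ran from 20733294 to 27022497, and all 10 genes were among the 22631 that passed the low-count filter. Levels are CPM, exon counts scaled to each library's total after TMM adjustment. PP4R3A itself stood at 18.2 to 18.7 CPM in pp4r3a-2, 59.2 to 64.5 CPM in pp4r3a-1 and 79.1 to 81.6 CPM in Col-0. The libraries carried the leaf markers of a seedling (RBCS1A, CA1, LHCB1.3 and RCA), which summed to 30989 to 32426 CPM in pp4r3a-2, 26246 to 28246 CPM in pp4r3a-1 and 30638 to 32232 CPM in Col-0. The 5 root markers, of which MRN1 had at most 4 counts in any mutant library, summed to 1990 to 2035, 2034 to 2110 and 1774 to 1825 CPM in the same order of genotypes. These sums hide members that differ in direction. Of the leaf markers, CA1 fell by 0.52 on the log2 scale in pp4r3a-2 and by 1.06 in pp4r3a-1, while RCA rose by 0.89 and 0.37. The root sum is mostly PYK10 (1963 CPM in pp4r3a-2, 2004 CPM in pp4r3a-1 and 1765 CPM in Col-0). THAS1 rose by 0.89 in pp4r3a-2 and by 1.56 in pp4r3a-1, EXPA7 fell by 0.67 in pp4r3a-2 and rose by 0.33 in pp4r3a-1, and MRN1, not tested, averaged 0.104, 0.0773 and 0.561 CPM. The 4 guard cell markers summed to 889 to 921 CPM in pp4r3a-2, 1131 to 1183 CPM in pp4r3a-1 and 2245 to 2310 CPM in Col-0. This sum is mostly TGG1 (867 CPM in pp4r3a-2, 1109 CPM in pp4r3a-1 and 2210 CPM in Col-0). TGG1, MYB60 and FAMA fell in both alleles. KAT1 fell by 0.30 in pp4r3a-2 and was not called in pp4r3a-1, with -0.004 (edgeR BH-adjusted p 0.962). The 5 seed markers summed to 104 to 105 CPM in pp4r3a-2, 66.2 to 69.1 CPM in pp4r3a-1 and 9.43 to 13.0 CPM in Col-0. Of these, SESA1 rose by 3.64 in pp4r3a-2 and was not called in pp4r3a-1, with 0.57 (edgeR BH-adjusted p 0.153). The other seed markers rose in both alleles. None of the 18 markers was at 0 in any library. Replicate 3 of pp4r3a-2 stood apart, with 0.962% of exon counts on plastid genes, against 0.427% to 0.558% in the other libraries. It also lay apart from replicates 1 and 2 over the genes as a whole. The mean chi-square per gene between exon counts was 12.0 and 8.26, against 1.61 to 4.00 for all other pairs within a genotype. Without this library, the log2 fold changes of pp4r3a-2 against Col-0 were 6.04 for GPT2, 5.39 for GBSS1 and 2.15 for APL3. Those of pp4r3a-2 against pp4r3a-1 were -2.40, -1.33 and -1.20. All were close to the values with it below. In whole seedlings a change in the share of a cell type and a change in RNA per cell cannot be told apart, and the part of these marker shifts in the values below was not tested.

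The promoters of GPT2, GBSS1 and APL3, the 3 genes with the highest fold changes in both alleles, are printed here, as the 300 bases before the annotated gene start on the gene's own strand, 5′ to 3′, from RefSeq's TAIR10.1 genome. Capitals mark a match to one of 4 short motifs, each searched on both strands. These were the evening element AAAATATCT and the CCA1-binding site AAAAATCT, both bound by morning clock factors, the G-box CACGTG, and the TATCCA element of sugar-regulated cereal promoters.
GPT2, chr1:22824114-22824413, plus strand: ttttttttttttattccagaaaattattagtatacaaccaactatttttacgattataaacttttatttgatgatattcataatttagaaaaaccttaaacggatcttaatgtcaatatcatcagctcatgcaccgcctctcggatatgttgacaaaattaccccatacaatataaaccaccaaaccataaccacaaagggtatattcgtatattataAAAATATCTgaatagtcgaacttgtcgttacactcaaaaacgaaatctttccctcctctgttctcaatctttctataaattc
GBSS1, chr1:11923867-11924166, minus strand: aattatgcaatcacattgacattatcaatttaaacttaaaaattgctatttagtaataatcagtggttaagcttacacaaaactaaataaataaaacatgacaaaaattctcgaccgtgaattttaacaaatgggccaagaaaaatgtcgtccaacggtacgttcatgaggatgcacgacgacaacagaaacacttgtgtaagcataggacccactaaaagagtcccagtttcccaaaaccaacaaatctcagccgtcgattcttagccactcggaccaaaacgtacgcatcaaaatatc
APL3, chr4:18259247-18259546, plus strand: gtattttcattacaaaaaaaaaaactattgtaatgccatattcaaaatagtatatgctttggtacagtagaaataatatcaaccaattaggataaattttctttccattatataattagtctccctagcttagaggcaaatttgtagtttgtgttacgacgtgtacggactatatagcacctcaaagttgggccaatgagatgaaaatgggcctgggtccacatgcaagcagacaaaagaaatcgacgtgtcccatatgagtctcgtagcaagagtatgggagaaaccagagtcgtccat

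The GPT2 window held an evening element at 82 to 74 bases before the gene start, the only evening element among the 10 windows. Of 27443 windows of protein-coding genes, 2.79% held this motif. No window of the 10 held the CCA1-binding site, which 7.94% of all windows did. The G-box was in 3 of the 10 windows (SS1, SS3 and SS4, with 2 copies in SS4), against 7.09% of all windows. The SS4 window also held the TATCCA element, on the reverse strand at 122 to 117 bases before the gene start, which 16.2% of all windows held. The windows of SS2, SS3 and SS4 run into a neighbouring gene. No matches overlapped, and letters that run across the gene start were not searched. The GBSS1 window ends in aaaatatc, the evening element without its last letter. The search could not tell whether GBSS1 has an evening element there.

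Nearly all GPT transcripts in Col-0 came from GPT1, while GPT2 was a large share of them in both mutants. GPT2, the translocator gene known for induction by sugars and by a rise in light, lies at chr1:22824414-22826902 on the plus strand with 3 introns. It stood at 24.6, 26.8 and 27.3 CPM in the pp4r3a-2 libraries, 134, 139 and 134 CPM in the pp4r3a-1 libraries, and 0.666, 0.232 and 0.252 CPM in the Col-0 libraries. Every mutant library was above every Col-0 library, and the pp4r3a-1 libraries were all above the pp4r3a-2 libraries. The log2 fold change against Col-0 was 6.07 (SE 0.133) in pp4r3a-2 and 8.44 (SE 0.101) in pp4r3a-1, ranks 7 and 2 from the highest among the 22631 genes.

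The Col-0 level of GPT2 rested on 17, 6 and 6 exon counts, so the size of its fold change is uncertain. Without Col-0 replicate 1 the log2 fold change was 6.73 in pp4r3a-2 and 9.10 in pp4r3a-1. With all libraries, DESeq2 gave an SE of 0.274 in pp4r3a-2 and 0.272 in pp4r3a-1, wider than edgeR's.

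GPT1, the isoform needed for pollen and embryo sac development, differed far less. It averaged 72.5 ± 2.24 CPM in pp4r3a-2, 93.1 ± 4.53 CPM in pp4r3a-1 and 57.2 ± 2.32 CPM in Col-0 (SD, n = 3 each). The 3 genotypes did not overlap, with log2 fold changes of 0.34 (SE 0.0444) in pp4r3a-2 and 0.70 (SE 0.0434) in pp4r3a-1. Per kilobase of exon, GPT2 made up 26.3% ± 0.844 of GPT transcripts in pp4r3a-2, 58.9% ± 1.58 in pp4r3a-1 and 0.654% ± 0.409 in Col-0 (SD, n = 3 each).

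**Figure D1:**
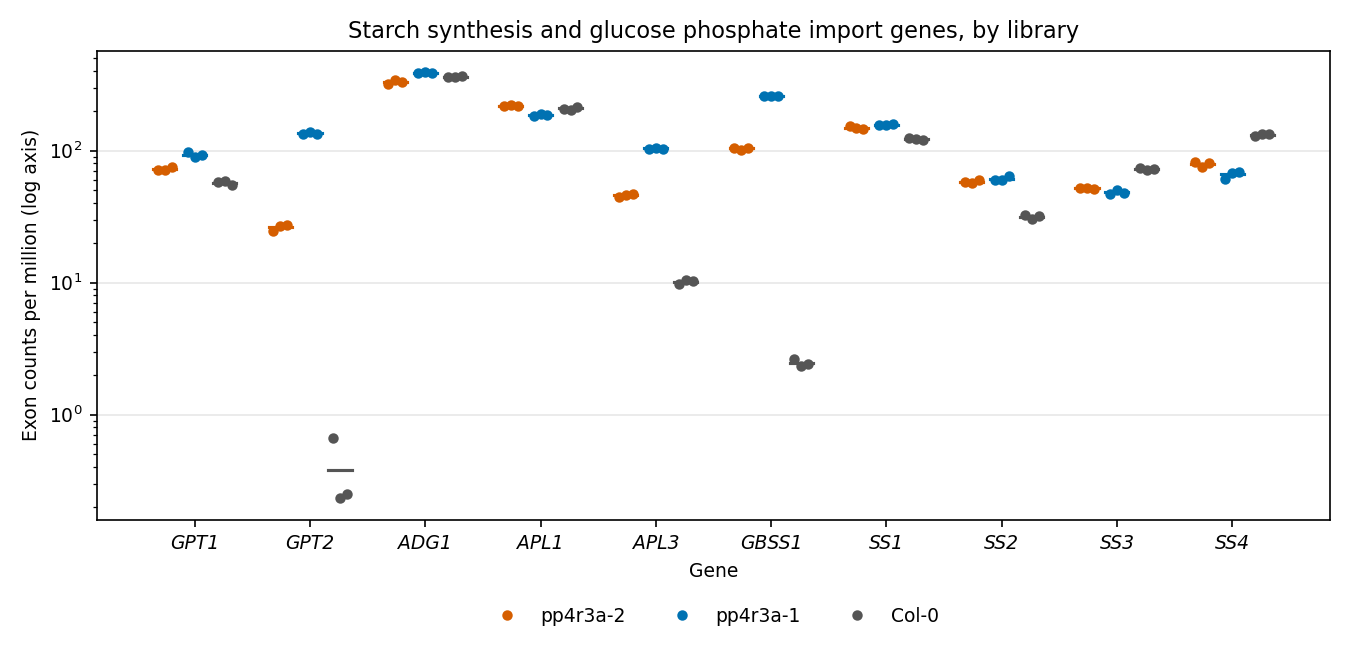
Exon levels in CPM (log axis) of the 10 genes in each of the 9 libraries. Points are libraries and lines are means (n = 3), with pp4r3a-2 in orange, pp4r3a-1 in blue and Col-0 in grey. GPT2, GBSS1 and APL3 lie far above Col-0 in both mutants, SS3 and SS4 lie below it, and ADG1 and APL1 stay near it.

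Among the subunits of ADP-glucose pyrophosphorylase, APL3, a large subunit known from sink tissues and from induction by sugar, stood apart from the subunits of leaves. APL3 (chr4:18259547-18263468, plus strand, 15 introns) stood at 44.7, 45.9 and 47.3 CPM in pp4r3a-2, 103, 105 and 104 CPM in pp4r3a-1, and 9.72, 10.5 and 10.3 CPM in Col-0. The genotypes did not overlap. The log2 fold change was 2.17 (SE 0.0551) in pp4r3a-2 and 3.35 (SE 0.0509) in pp4r3a-1.

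ADG1, the catalytic small subunit gene, differed little from Col-0, in opposite directions in the alleles. It averaged 331 ± 10.1 CPM in pp4r3a-2, 391 ± 3.76 CPM in pp4r3a-1 and 364 ± 4.27 CPM in Col-0 (SD, n = 3 each). Its pp4r3a-2 libraries were all below Col-0 and its pp4r3a-1 libraries all above, with log2 fold changes of -0.14 (SE 0.0355) and 0.10 (SE 0.0353). APL1, the main large subunit of leaves, averaged 219.6 ± 2.94 CPM in pp4r3a-2, 187 ± 2.71 CPM in pp4r3a-1 and 209.6 ± 4.99 CPM in Col-0, with log2 fold changes of 0.07 (SE 0.0352) and -0.17 (SE 0.0352). Its pp4r3a-2 libraries all lay above Col-0, but this difference did not pass the threshold of the fit over all genes, and its log2 value was 0.02 with library size scaling.

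Per kilobase of exon, APL1 made up 76.0% ± 0.274 of the transcripts of the 4 large subunit genes in pp4r3a-2, 57.5% ± 0.251 in pp4r3a-1 and 87.6% ± 0.0652 in Col-0 (SD, n = 3 each). APL3 made up 13.1% ± 0.444, 26.4% ± 0.0905 and 3.51% ± 0.174 in the same order. The sum over the 4 genes was 167 ± 1.65 CPM per kilobase in pp4r3a-2, 188 ± 2.70 in pp4r3a-1 and 138 ± 3.22 in Col-0.

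GBSS1, the granule-bound synthase gene, had the second highest fold change of the 10 genes. The gene lies at chr1:11920390-11923866 on the minus strand with 12 introns. It stood at 105, 102 and 105 CPM in pp4r3a-2, 261, 258 and 261 CPM in pp4r3a-1, and 2.62, 2.32 and 2.44 CPM in Col-0. No libraries of different genotypes overlapped, and the spread within each genotype was small beside the differences between them. The log2 fold change was 5.40 (SE 0.0613) in pp4r3a-2 and 6.72 (SE 0.0581) in pp4r3a-1, ranks 13 and 8 from the highest of all genes tested. The Col-0 level of GBSS1 rested on 67, 60 and 58 exon counts, so these SE values can understate the error.

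In Arabidopsis leaves GBSS1 transcription is known to follow the morning clock factors CCA1 and LHY. CCA1 averaged 26.2 ± 1.93 CPM in pp4r3a-2, 28.5 ± 1.68 CPM in pp4r3a-1 and 0.678 ± 0.0541 CPM in Col-0 (SD, n = 3 each). LHY averaged 14.9 ± 0.275 CPM in pp4r3a-2, 8.49 ± 0.675 CPM in pp4r3a-1 and 0.956 ± 0.0429 CPM in Col-0. TOC1, an evening clock gene, averaged 84.6 ± 2.03, 100.1 ± 3.47 and 164 ± 0.693 CPM in the same order. The Col-0 levels rested on 16, 19 and 16 exon counts for CCA1 and on 24, 26 and 22 for LHY. The order of the mutants differed: GBSS1 and GPT2 were higher in pp4r3a-1, LHY was higher in pp4r3a-2, and CCA1 libraries of the mutants overlapped. The hour of harvest of each genotype is not given, so genotype and hour cannot be told apart for these genes. The part of the clock genes in the level of GBSS1 was not tested.

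The soluble synthases split. SS1 and SS2, which extend short and intermediate chains, stood higher in both mutants, and SS3 and SS4, which act in chain extension and granule initiation, stood lower. SS2 was at 58.2, 57.0 and 60.0 CPM in pp4r3a-2, 59.6, 60.3 and 64.8 CPM in pp4r3a-1, and 32.3, 30.6 and 31.8 CPM in Col-0. The mutants overlapped each other and lay above Col-0, with log2 fold changes of 0.89 (SE 0.0469) in pp4r3a-2 and 0.96 (SE 0.0463) in pp4r3a-1.

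SS1 averaged 149 ± 2.94 CPM in pp4r3a-2, 158 ± 1.56 CPM in pp4r3a-1 and 123 ± 1.70 CPM in Col-0 (SD, n = 3 each), and its log2 fold changes were 0.29 (SE 0.0360) and 0.36 (SE 0.0358). SS3 averaged 52.0 ± 0.356, 48.7 ± 1.67 and 72.7 ± 1.36 CPM in pp4r3a-2, pp4r3a-1 and Col-0, with log2 fold changes of -0.48 and -0.58 (SE 0.0416 each). These differences were small beside those of GBSS1, and for both genes each mutant lay clear of Col-0.

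SS4 (chr4:10082108-10087203, plus strand, 15 introns) had the lowest fold changes of the 10 genes. It stood at 82.0, 75.2 and 80.6 CPM in pp4r3a-2, 61.4, 68.3 and 68.6 CPM in pp4r3a-1, and 128, 133 and 134 CPM in Col-0. The log2 fold change was -0.74 (SE 0.0429) in pp4r3a-2 and -0.997 (SE 0.0433) in pp4r3a-1. Counts of SS2, SS3 and APL1 are less certain than the others, because each overlaps a gene on the opposite strand in TAIR10.1 and the sources used here do not say whether the counting used strand.

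Per kilobase of exon, GBSS1 made up 28.8% ± 0.161 of the transcripts of GBSS1 and SS1 to SS4 in pp4r3a-2, 50.4% ± 0.544 in pp4r3a-1 and 0.930% ± 0.0556 in Col-0 (SD, n = 3 each). The most abundant of the 5 was SS1 in pp4r3a-2, GBSS1 in pp4r3a-1 and SS1 in Col-0, where SS1 and SS4 held 39.8% ± 0.560 and 33.7% ± 0.865. SS4 held 14.8% ± 0.442 in pp4r3a-2 and 8.64% ± 0.471 in pp4r3a-1. The sum of the 5 genes was 158 ± 2.61 CPM per kilobase in pp4r3a-2, 225 ± 2.35 in pp4r3a-1 and 115 ± 0.448 in Col-0.

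**Figure D2:**
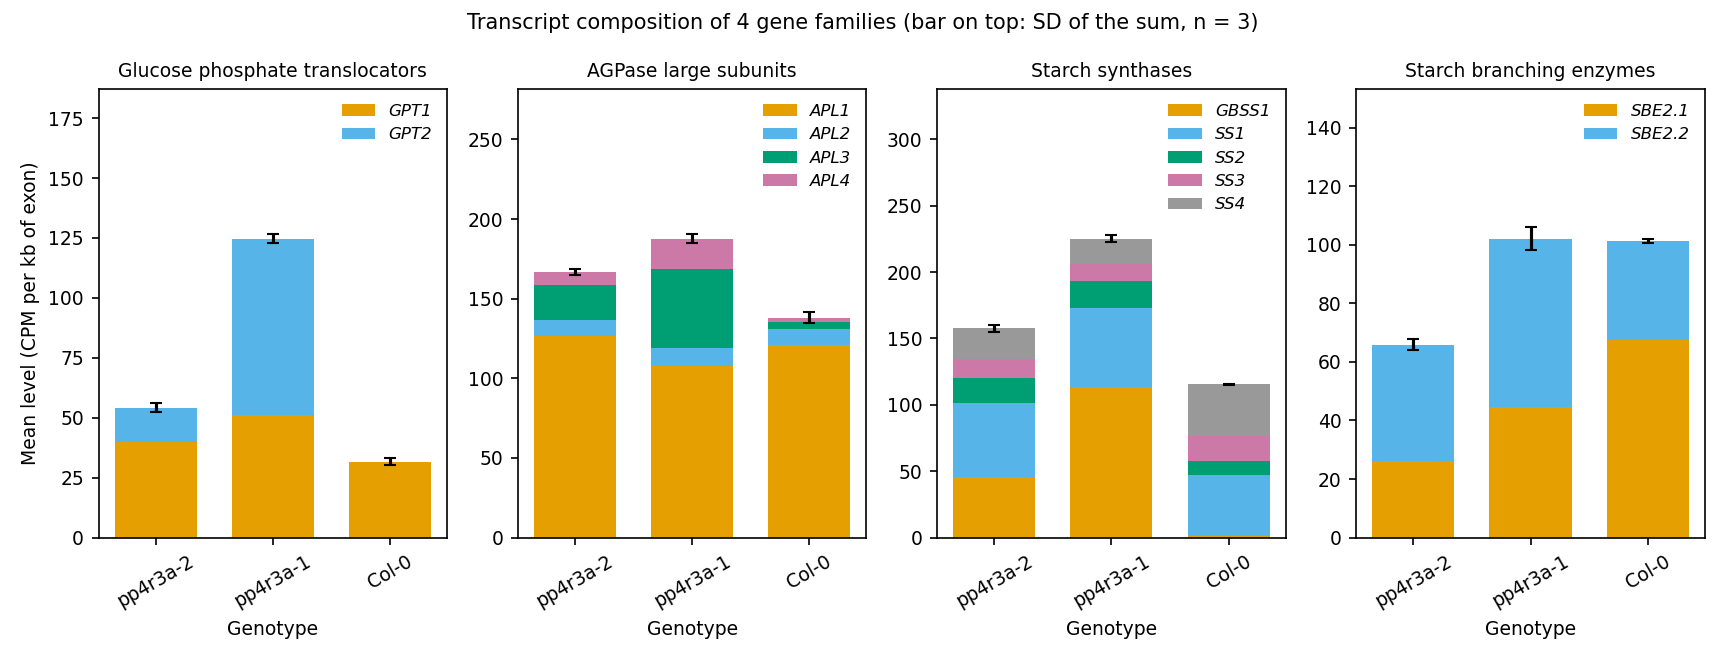
Mean level in CPM per kilobase of exon for the genes of 4 families, stacked, with the genotype on the x axis in the order pp4r3a-2, pp4r3a-1, Col-0. Bars on top give the SD of the sum (n = 3). GPT2, APL3 and GBSS1 take up little of the Col-0 bars and much more of the mutant bars, while the branching enzyme SBE2.1 takes up less of the mutant bars.

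In pp4r3a-2 against Col-0, 9 of the 10 genes passed an adjusted p of 0.05 in edgeR's fit over all genes, 6 higher and 3 lower, where 71.4% of all genes tested did. In pp4r3a-1 against Col-0, 10 of 10 passed, 7 higher and 3 lower, where 72.4% of all genes did. The contrasts were used to choose the genes, and they share the Col-0 libraries, so nothing is read from these counts. Called and at least 2-fold higher were GPT2, GBSS1 and APL3 in each allele, against 8.45% of all genes in pp4r3a-2 and 9.19% in pp4r3a-1, and 0 were called and at least 2-fold lower, against 6.24% and 6.85% of all genes. All 10 lay clear of Col-0 in each allele, as did 73.6% of all genes in pp4r3a-2 and 73.7% in pp4r3a-1. The median log2 fold change of the 10 genes was 0.31 in pp4r3a-2 and 0.53 in pp4r3a-1, beside medians over all genes of -0.0014 and -0.0026.

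Between the alleles, pp4r3a-2 had less GPT2, GBSS1 and APL3 transcript than pp4r3a-1. The log2 fold change of pp4r3a-2 against pp4r3a-1 was -2.37 (SE 0.0511) for GPT2, -1.32 (SE 0.0359) for GBSS1 and -1.18 (SE 0.0413) for APL3. GPT1 had -0.36 (SE 0.0428) and ADG1 -0.24 (SE 0.0354), while SS4 and APL1 had 0.26 (SE 0.0447) and 0.23 (SE 0.0353). SS1, SS2 and SS3 lay between -0.08 and 0.10. Of the 10 genes 7 passed the same threshold, 2 higher and 5 lower, where 47.9% of all genes did. These levels too were used in choosing the genes, so nothing is read from that count. GPT2, GBSS1 and APL3 were called and at least 2-fold lower, against 2.71% of all genes, and 0 were at least 2-fold higher, against 2.28%. The libraries of the alleles did not overlap for 9 of the 10, against 53.5% of all genes. PP4R3A transcript itself was lower in pp4r3a-2, by a log2 value of -1.76 (SE 0.0498).

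The genes whose profiles over the 9 libraries lay nearest to GPT2 and GBSS1 were sought among 20571 genes with a mean of at least 1 CPM. Likeness was the root mean square difference in log2 CPM after taking off each gene's own Col-0 mean, and it has no test. Nearest to GPT2 were NUDT24 (AT5G19470), a nudix hydrolase gene, at 0.409, PAP1 (AT1G56650), the MYB activator of anthocyanin synthesis, at 0.541, and DFR (AT5G42800), dihydroflavonol reductase, at 1.25. PAP1 is itself known for induction by sucrose. It had 10.6 ± 1.19 CPM in pp4r3a-2, 39.9 ± 1.46 CPM in pp4r3a-1 and 0.120 ± 0.00540 CPM in Col-0 (SD, n = 3 each). Each Col-0 library held 3 exon counts of PAP1, at the floor set by depth. The SD in Col-0 thus reflects library size alone, and the level there and the likeness to GPT2 are uncertain. NUDT24 too was low in Col-0, at 0.515 CPM. NUDT24 and PAP1 reached the mean of 1 CPM only through the mutant libraries. Nearest to GBSS1 were DFR at 0.241, LDOX (AT4G22880), anthocyanidin synthase, at 0.317, and GSTF12 (AT5G17220), a glutathione transferase of anthocyanin transport, at 0.435. For scale, the same measure of GBSS1 against a flat profile was 4.94, and of GPT2 5.91.

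PAP1, SEN1 and ASN1 were also companion genes picked with their values known. PAP1 stood higher in both mutants, and SEN1 and ASN1 stood lower. SEN1, a dark-induced gene, averaged 46.9 ± 1.38 CPM in pp4r3a-2, 7.90 ± 0.285 CPM in pp4r3a-1 and 225 ± 7.41 CPM in Col-0 (SD, n = 3 each). ASN1, a glutamine-dependent asparagine synthetase gene that sugars repress, averaged 66.8 ± 1.16, 13.0 ± 0.729 and 95.2 ± 3.96 CPM in the same order. SEN1 and ASN1, like GPT2, GBSS1 and APL3, differed more from Col-0 in pp4r3a-1 than in pp4r3a-2. The part of these genes in the levels of GPT2, GBSS1 and APL3 was not tested.

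Intron counts give a second view of the same libraries and likewise carry no test. GPT2 had 6, 12 and 12 intron counts in pp4r3a-2, 45, 39 and 42 in pp4r3a-1 and 0 in each Col-0 library, which allows up to 3 counts per library and came with few exon counts. GBSS1 had 14, 35 and 21 intron counts in pp4r3a-2, 70, 57 and 68 in pp4r3a-1, and 0, 0 and 1 in Col-0. APL3 had 15, 19 and 17 in pp4r3a-2, 61, 55 and 56 in pp4r3a-1, and 4, 7 and 7 in Col-0. For all 3 genes the intron counts thus stood in the same order of genotypes as the exon counts.

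Relative to exon counts, introns were more frequent in the mutants for most of the genes. In 7 of the genes Col-0 introns held 10 or more counts in sum, and 6 of these had more intron counts per 100 exon counts in both mutants than in Col-0, and APL3 had fewer. SS4 had 1.87 in pp4r3a-2, 2.22 in pp4r3a-1 and 0.746 in Col-0, and APL1 had 4.36, 4.35 and 3.05. APL3 had 1.61 in pp4r3a-2, 2.203 in pp4r3a-1 and 2.35 in Col-0. The APL3 value in Col-0 rested on 18 intron counts, and by library each mutant overlapped Col-0, so its direction is uncertain. Over all loci the value was 2.997 to 3.07 in the pp4r3a-2 libraries, 3.12 to 3.34 in pp4r3a-1 and 2.05 to 2.14 in Col-0, so the whole library moved in the same direction as these 6 genes. SS4 intron counts were 29, 40 and 33 in pp4r3a-2, 41, 43 and 26 in pp4r3a-1, and 26, 19 and 29 in Col-0. These intron counts, not scaled for depth, overlapped between genotypes. Its exon levels, which are scaled, did not, so the comparison is of unlike scales.

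**Figure D3:**
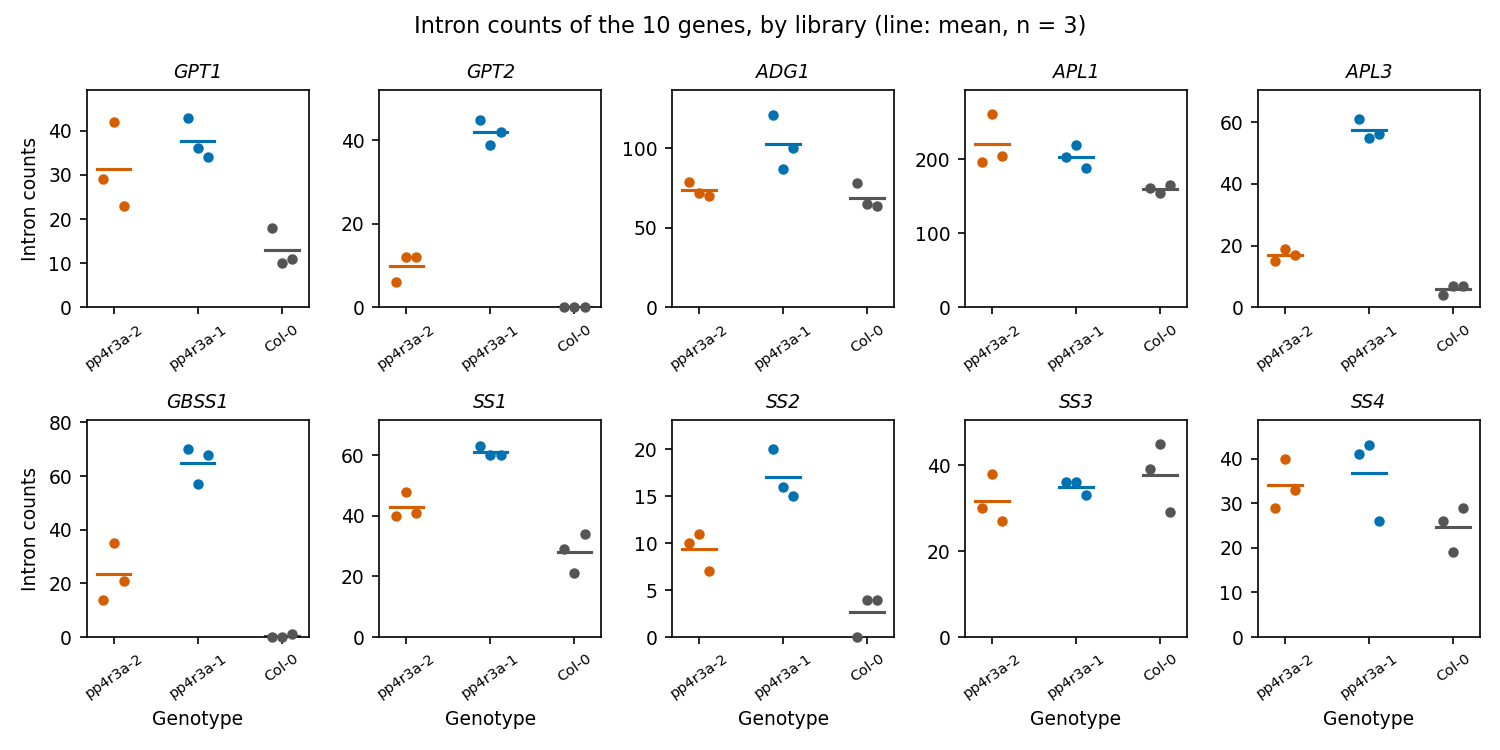
Intron counts of the 10 genes in each library, with genotype on the x axis (pp4r3a-2, pp4r3a-1, Col-0), points for libraries and lines for means (n = 3). Counts are not scaled for depth. GPT2 and GBSS1 have 0 or 1 intron count in the Col-0 libraries, and SS3 shows overlapping genotypes.

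The remaining genes of the pathway were tested as a list of 24, of which 18 act in starch synthesis and 6 are plastid envelope transporters. This list and the starch breakdown list below were chosen with earlier results of these data known. Their p-values are therefore no independent evidence. All 24 passed the low-count filter. In pp4r3a-2, 9 rose and 11 fell, and in pp4r3a-1, 9 rose and 11 fell by edgeR's quasi-likelihood test at an adjusted p of 0.05. Over all genes, 35.6% were higher and 35.8% lower in pp4r3a-2, and 36.3% and 36.1% in pp4r3a-1. The shares of the list are close to this background. The list's median log2 change was -0.05 in pp4r3a-2 and -0.07 in pp4r3a-1.

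APL4, another large subunit gene, averaged 22.8 ± 0.532 CPM in pp4r3a-2, 52.7 ± 2.17 CPM in pp4r3a-1 and 7.39 ± 0.803 CPM in Col-0 (SD, n = 3 each). It rose by 1.63 (SE 0.0727; edgeR BH-adjusted p 3.51e-21) in pp4r3a-2 and by 2.84 (SE 0.0637; edgeR BH-adjusted p 8.26e-31) in pp4r3a-1. APL2 rose by 0.23 in pp4r3a-1 (edgeR BH-adjusted p 0.000518), with 0.04 in pp4r3a-2 (edgeR BH-adjusted p 0.599). APS2 and ESV1 are outside the rule for naming and are given because the genes that passed in neither allele number 2. APS2, the other small subunit gene, stayed under 1 CPM in each genotype and did not pass the test in either allele (edgeR BH-adjusted p 0.214 in pp4r3a-2 and 0.854 in pp4r3a-1).

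Transcripts of the enzymes that branch and trim the glucan changed in opposite directions within each pair. Of the branching enzyme genes, SBE2.1 fell to 73.1 ± 3.14 CPM in pp4r3a-2 and 125 ± 6.56 CPM in pp4r3a-1, against 189 ± 1.72 CPM in Col-0. SBE2.2 rose to 112 ± 2.14 CPM in pp4r3a-2 and 162 ± 4.46 CPM in pp4r3a-1, against 95.4 ± 0.774 CPM in Col-0 (SD, n = 3 each). The log2 changes were -1.37 and -0.59 for SBE2.1 and 0.23 and 0.76 for SBE2.2 in pp4r3a-2 and pp4r3a-1, with edgeR BH-adjusted p of at most 1.54e-06. SBE2.2 held 60.4% ± 0.584 of the pair's transcripts per kilobase in pp4r3a-2, 56.3% ± 0.806 in pp4r3a-1 and 33.5% ± 0.265 in Col-0.

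The debranching isoamylase is a complex of ISA1 and ISA2. ISA1 fell by 0.52 in pp4r3a-2 and by 0.35 in pp4r3a-1 on the log2 scale, while ISA2 rose by 0.36 in pp4r3a-2 and by 0.95 in pp4r3a-1 (edgeR BH-adjusted p at most 7.18e-08). BE1, a branching enzyme homologue, fell by 0.16 in pp4r3a-2 and by 0.29 in pp4r3a-1 (edgeR BH-adjusted p 0.0169 and 3.47e-05). The pp4r3a-2 call of BE1 was lost with DESeq2 (adjusted p 0.0614), without Col-0 replicate 2 (edgeR BH-adjusted p 0.0913), without Col-0 replicate 3 (edgeR BH-adjusted p 0.0535) and without pp4r3a-2 replicate 2 (edgeR BH-adjusted p 0.055).

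Transcripts of PGM1 and PGI1, whose enzymes feed glucose phosphate from the Calvin cycle into starch within the chloroplast, fell. PGM1, the plastid phosphoglucomutase gene needed for leaf starch, fell to 93.8 ± 1.31 CPM in pp4r3a-2 and 98.6 ± 2.31 CPM in pp4r3a-1, against 205 ± 1.15 CPM in Col-0 (SD, n = 3 each). Its log2 change was -1.13 (SE 0.0364; edgeR BH-adjusted p 1.3e-25) in pp4r3a-2 and -1.06 (SE 0.0361; edgeR BH-adjusted p 5.11e-25) in pp4r3a-1. PGI1, the plastid phosphoglucose isomerase gene, fell by 0.41 in pp4r3a-2 and by 0.15 in pp4r3a-1 (edgeR BH-adjusted p 1.15e-12 and 0.000476).

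Among genes of granule initiation and glucan targeting, SS5, a synthase-like factor of granule initiation, fell by 0.51 in pp4r3a-2 and by 0.66 in pp4r3a-1. PTST1, which brings GBSS to the granule, fell by 0.84 in pp4r3a-2 and by 0.85 in pp4r3a-1, to 6.48 ± 0.469 CPM in pp4r3a-2 and 6.44 ± 0.732 CPM in pp4r3a-1, against 11.7 ± 0.895 CPM in Col-0 (SD, n = 3 each). PTST2, which acts with SS4, fell by 0.24 in pp4r3a-2 and by 0.21 in pp4r3a-1 (edgeR BH-adjusted p 0.00522 and 0.0125). Both PTST2 calls were lost without Col-0 replicate 1 (edgeR BH-adjusted p 0.0586 in pp4r3a-2 and 0.117 in pp4r3a-1), and the pp4r3a-2 call also without pp4r3a-2 replicate 2 (edgeR BH-adjusted p 0.0762). PTST3 fell by 0.17 in pp4r3a-1 (edgeR BH-adjusted p 0.00139), with 0.09 in pp4r3a-2 (edgeR BH-adjusted p 0.0829).

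Transcripts of the coiled-coil proteins MFP1 and MRC, which set granule number, rose in pp4r3a-2, by 0.43 and 0.44 (edgeR BH-adjusted p 5.47e-06 and 3.48e-08). In pp4r3a-1, MFP1 fell by 0.19 (edgeR BH-adjusted p 0.00943) and MRC stood at -0.07 (edgeR BH-adjusted p 0.287). Without Col-0 replicate 2, MRC was called lower in pp4r3a-1, with -0.15 (edgeR BH-adjusted p 0.043). LESV, which helps order glucans into granules, fell by 0.24 in pp4r3a-2 and rose by 0.47 in pp4r3a-1 (edgeR BH-adjusted p 6.31e-05 and 1.69e-11). Its relative ESV1 did not pass the test in either allele (edgeR BH-adjusted p 0.114 in pp4r3a-2 and 0.393 in pp4r3a-1).

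Of the 6 transporter genes, 4 rose and 2 fell in pp4r3a-2, and 4 rose and 1 fell in pp4r3a-1. Among all genes tested, 35.6% rose and 35.8% fell in pp4r3a-2, and 36.3% rose and 36.1% fell in pp4r3a-1. PPT2, a phosphoenolpyruvate translocator gene, rose in both alleles, to 17.7 ± 0.906 CPM in pp4r3a-2 and 17.5 ± 0.670 CPM in pp4r3a-1, against 2.64 ± 0.223 CPM in Col-0 (SD, n = 3 each). Its log2 change was 2.74 (SE 0.0948; edgeR BH-adjusted p 1.21e-24) in pp4r3a-2 and 2.73 (SE 0.0939; edgeR BH-adjusted p 7.01e-25) in pp4r3a-1. PPT1 rose by 0.28 in pp4r3a-2 and by 0.46 in pp4r3a-1.

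NTT1, which imports the ATP that ADP-glucose synthesis uses in plastids without photosynthesis, rose by 0.86 in pp4r3a-2 and by 1.44 in pp4r3a-1 (edgeR BH-adjusted p 3.13e-20 and 1.14e-27), while its paralog NTT2 fell by 0.13 in pp4r3a-2 and by 0.12 in pp4r3a-1 (edgeR BH-adjusted p 0.00175 and 0.00367). TPT, the triose phosphate exporter of leaves, rose by 0.29 in pp4r3a-2 (edgeR BH-adjusted p 7.05e-09) and by 0.10 in pp4r3a-1 (edgeR BH-adjusted p 0.0168). The pp4r3a-1 call of TPT was lost without Col-0 replicate 2 (edgeR BH-adjusted p 0.107) and without Col-0 replicate 3 (edgeR BH-adjusted p 0.0784). XPT, the pentose phosphate translocator, fell by 0.45 in pp4r3a-2 (edgeR BH-adjusted p 1.22e-09), with -0.01 in pp4r3a-1 (edgeR BH-adjusted p 0.827).

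**Figure D4:**
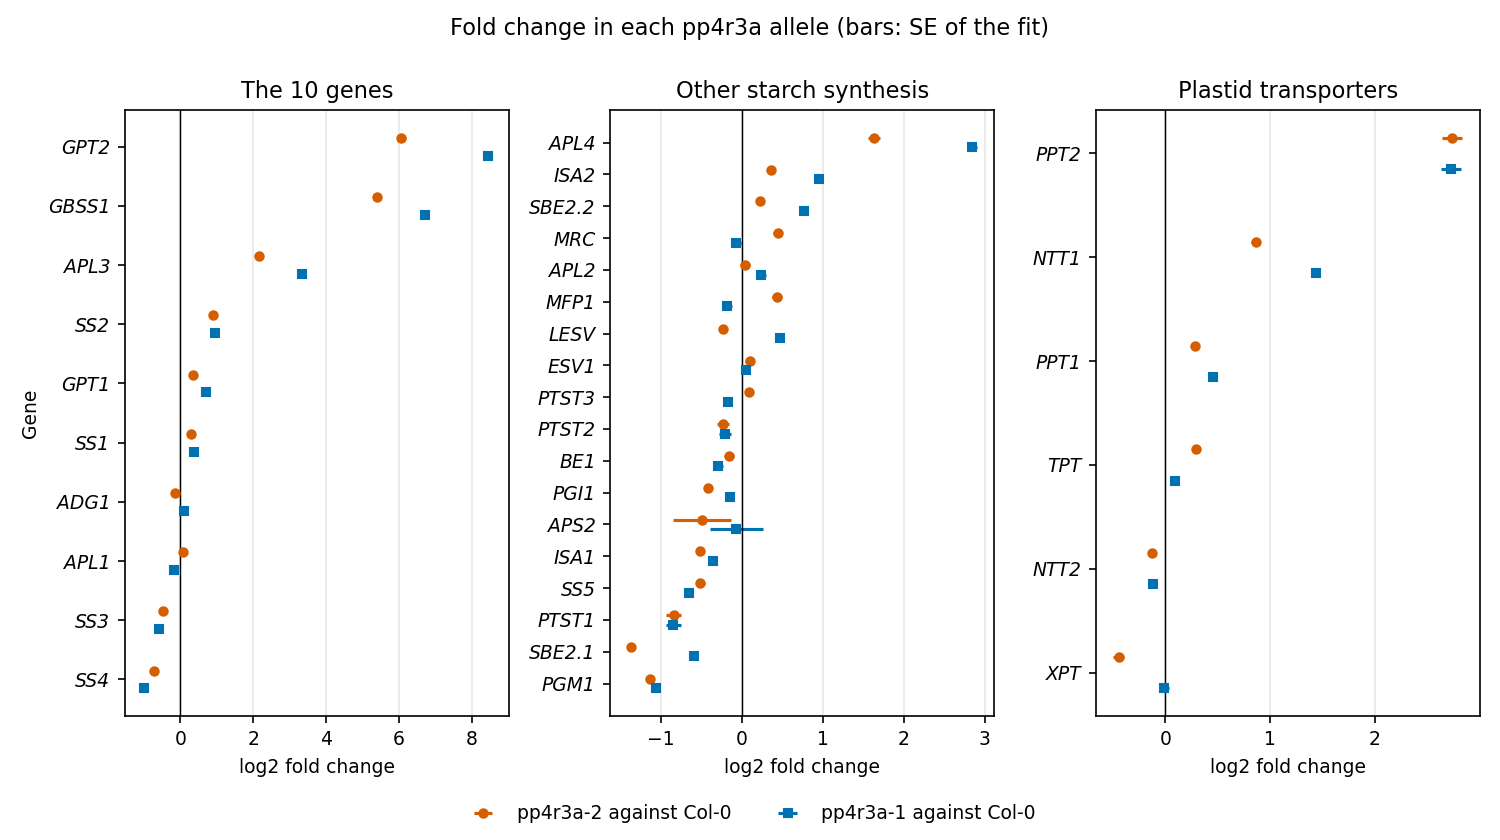
Log2 fold change against Col-0 (x axis) of the 10 genes, of 18 other starch synthesis genes and of 6 plastid transporters (y axis), in pp4r3a-2 (orange circles) and pp4r3a-1 (blue squares), with bars for the SE of the fit. GPT2, GBSS1, APL3, APL4 and PPT2 lie furthest to the right, and SBE2.1, PGM1, PTST1 and SS4 to the left. The x axes of the panels differ.

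Tested directly, pp4r3a-2 differed from pp4r3a-1 in 16 of the 24 genes, 5 higher and 11 lower (24.2% and 23.7% of all genes tested). APL4 was lower in pp4r3a-2, by a log2 value of -1.21 (SE 0.053; edgeR BH-adjusted p 8.93e-21), as were SBE2.1 (-0.77), LESV (-0.70), ISA2 (-0.59), NTT1 (-0.58) and SBE2.2 (-0.53). MFP1 and MRC were higher in pp4r3a-2, by 0.62 and 0.51 (edgeR BH-adjusted p 2.09e-07 and 4.34e-09). PPT2, PTST1 and PGM1 did not pass the test between alleles, with log2 values of 0.01 (SE 0.0651), 0.00 (SE 0.104) and -0.07 (SE 0.0373). Counts of APL4, APS2, SS5, BE1, SBE2.1, ISA1, PTST2, PTST3, MFP1, TPT, PPT1, XPT and NTT1 may include reads of a gene that overlaps each on the opposite strand.

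For comparison, 17 genes of starch breakdown numbered 4 higher and 13 lower in pp4r3a-2 and 6 higher and 10 lower in pp4r3a-1 by the same test. Of all genes, 35.6% were higher and 35.8% lower in pp4r3a-2, and 36.3% were higher and 36.1% lower in pp4r3a-1. Their median log2 change was -0.43 in pp4r3a-2 and -0.21 in pp4r3a-1, beside -0.05 and -0.07 for the 24 other pathway genes. The 10 genes had 0.31 and 0.53, but were selected on these levels. The difference between the lists was not tested.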

How the data were processed

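The authors deposited, per the file headers, exon counts and intron counts for each of 37869 loci in 9 libraries. Per the submitters' processing notes reads were aligned with STAR; the counting program, its strand setting, the build and the annotation are not given in the sources used here. The values are whole numbers with unequal library totals and were used as raw counts.

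The 10 genes and the other lists were chosen with earlier results of these data known. Exon counts of the 22631 genes that filterByExpr left were TMM-scaled. A robust quasi-likelihood fit in edgeR took 1 mean per genotype from all 9 libraries. A call needs a two-sided p below 0.05 after Benjamini-Hochberg adjustment across all genes. The SE was taken from edgeR's F, as the size of the log2 change over the root of F, and can understate the error of genes with few counts. Depth sets a floor of 3 counts, or 0.111 to 0.149 CPM, and this floor covers counting error only. All 10 genes were named, and of the other pathway genes those with a mean of at least 1 CPM that were called in an allele. NUDT24, DFR, LDOX and GSTF12 came from the likeness rule, with a prior count of 2. Gene models, exon lengths and promoters came from RefSeq's TAIR10.1, which held 37573 of the loci and may not be the annotation counted.

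Alternatives were RLE or library size scaling, no filter, a filter of 1 CPM in 3 libraries with a mean count of 20, DESeq2, an adjusted p under 0.01, fits to the compared genotypes alone, a block for replicate number, and fits without each library in turn. The edgeR step was tested on simulated data. Software was R 4.3.3 with edgeR 4.0.16 and DESeq2 1.42.0, and Python 3.11.15 with matplotlib 3.10.9, numpy 2.4.6 and pandas 2.3.3.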

Additional observations from a re-analysis of the deposited data

Results flagged for a closer look

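The alleles differed from each other, in the direct edgeR test of pp4r3a-2 against pp4r3a-1, in 16 of the other pathway genes, and each is listed for that reason alone. Log2 values were below 0 for APL4 (-1.207), SBE2.1 (-0.7749), LESV (-0.7048), ISA2 (-0.5929), NTT1 (-0.5755), SBE2.2 (-0.5319), XPT (-0.4335), PGI1 (-0.2695), APL2 (-0.198), PPT1 (-0.1744) and ISA1 (-0.1698). They were above 0 for MFP1 (0.6211), MRC (0.5143), PTST3 (0.2615), TPT (0.1922) and SS5 (0.1429). The SS5 call was lost without pp4r3a-1 replicate 2 (edgeR adjusted p 0.0808) or 3 (0.0864) and without pp4r3a-2 replicate 1 (0.143) or 3 (0.0578), and the ISA1 call without pp4r3a-2 replicate 3 (0.0587). LESV and MFP1 were called in opposite directions against Col-0 in the 2 alleles.

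With TMM scaling, ADG1 and APL1 lay on opposite sides of Col-0 in the alleles in every library. The log2 value between pp4r3a-2 and pp4r3a-1 was -0.2391 for ADG1 and 0.2334 for APL1. For APL1, pp4r3a-2 did not pass the threshold against Col-0, with a log2 value of 0.0675, and 0.0209 with library size scaling. Counts of APL1 may also include reads from the opposite strand. Both genes were past the threshold between the alleles in the fit over all genes. Those exon levels also served to choose the genes, so the calls are no independent test, and the differences were not tested in other samples.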

How the results depend on the processing

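Counts of called genes stayed within 1.5 times the reported count under every alternative run, for the other pathway genes and for all genes. Leaving out each library gave 9 to 10 higher and 9 to 11 lower pathway genes in pp4r3a-2, 8 to 9 and 10 to 12 in pp4r3a-1, and 4 to 5 and 10 to 11 between the alleles. No log2 value of the 10 genes or of a named pathway gene changed sign with its call. The fold change of GPT2 depended most on a single library: without Col-0 replicate 1 its log2 value was 6.73 in pp4r3a-2 and 9.10 in pp4r3a-1. Of the calls between alleles, SS5 was lost under DESeq2 (adjusted p 0.0957), with library size scaling (adjusted p 0.139) and without pp4r3a-2 replicate 1 (edgeR adjusted p 0.143), and ISA1 without pp4r3a-2 replicate 3 (edgeR adjusted p 0.0587). PGM1 was called lower in pp4r3a-2 with library size scaling alone (adjusted p 0.0135). Same-numbered libraries deviated together with correlations of -0.0413 to 0.0311, and 0 of 9 libraries correlated best with their own number, so the numbers were not taken to pair the samples. With the replicate block, 9 pathway genes were higher and 11 lower in each allele, and 5 and 11 between the alleles, as without it. Low counts limit GPT2, GBSS1, PAP1, CCA1, LHY and NUDT24 in Col-0 and the intron counts of GPT2, GBSS1, SS2 and APL3.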
